A study of Mus musculus with 6 samples.

Results

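Keratins form the intermediate filaments of epithelial cells, and the mouse genome carries a large family of them in a pair of gene clusters. Genes with a symbol made of Krt, a number and at most lower-case letters after it numbered 51 among the 46603 genes of the count tables. Of these 51, 27 had a mean of at least 10 counts per library and are described here, 14 of type I and 13 of type II. All 27 also passed the filter on low counts used for testing, and none of the other 24 did. Just inside the limit stood Krt84, with a mean of 10.2 counts, and Krt36, with 15.2 counts. Just outside stood Krt28, with 8.83 counts, and Krt1, with 8.33 counts. Of the 24 keratins below the limit, 4 (Krt31, Krt33b, Krt34 and Krt81) had no count in any library.

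A keratin filament is built from pairs, each made of an acidic type I and a basic type II chain, so an epithelial cell makes both types together. Krt5 and Krt14 are the pair of basal layers, Krt8 and Krt18 that of simple epithelia, and Krt6a, Krt6b, Krt16 and Krt17 belong to hair follicles, nails, oral epithelium and activated keratinocytes. Other members mark the sheaths and the shaft of the hair or the upper layers of skin and oral mucosa. In teeth, keratins of the enamel organ also contribute to the organic content of enamel, and the filaments are anchored at desmosomes and hemidesmosomes by plakin proteins.

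RNA was sequenced from primary cells of the enamel organ, the dental epithelium that lays down and matures enamel, taken from lower incisors of C57BL/6 mice. The knockout animals lacked Stim1/2 (DKO, replicates 1, 3 and 4), and they were set against wild-type animals (WT, replicates 1, 2 and 3). STIM1 and STIM2 are the endoplasmic reticulum calcium sensors that open store-operated calcium channels. The labels give no age and no Cre driver; in the published work on these mice the deletion was driven by a Krt14 promoter, that is, in epithelium, so other cells of the sample would keep both genes. Whether replicates are separate animals is not in the labels, so a p-value here reflects the spread between libraries, which may be technical.

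Library totals ran from 18609759 to 22829411 counts. In CPM (counts scaled to a library of 1000000 after TMM normalisation), Stim1 had 107, 143 and 125 CPM in DKO libraries, against 414, 492 and 362 CPM in WT libraries. Stim2 had 105, 136 and 126 CPM in DKO libraries, against 229, 310 and 245 CPM in WT libraries. Both targeted genes were thus lower in every DKO library, with Stim1 at 29.6% and Stim2 at 46.8% of the WT level (edgeR quasi-likelihood test, adjusted p = 0.00553 and 0.018). The Stim2 call rested on single libraries, since its adjusted p was 0.0574 with DKO 1 left out, 0.0635 with DKO 3, 0.0987 with DKO 4 and 0.0653 with WT 3 left out. The exact two-sided permutation test over 3 against 3 libraries gave p = 0.1 for each, the smallest it can give. Ambn and Amelx, which encode the main enamel matrix proteins, took 11.2, 15.8 and 11.2% of the counts in DKO libraries and 6.86, 12.8 and 10.7% in WT libraries. Xist was high in DKO 1, WT 1 and WT 2 and low in the others, so both groups mixed sexes.

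Keratin transcripts as a whole took a smaller share of the RNA in the DKO enamel organ. All 51 genes summed to 0.683, 0.610 and 0.649% of the counts in DKO libraries, against 1.06, 0.916 and 0.933% in WT libraries. The ranges do not overlap, and the means were 0.647 ± 0.0365% in DKO and 0.971 ± 0.0811% in WT (SD, n = 3 each). With Ambn and Amelx left out of the totals, the mean shares were 0.742% in DKO and 1.08% in WT, and the ranges still did not overlap. Since whole samples were sequenced, fewer cells of a type and less RNA per cell cannot be told apart in this or any later value.

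Krt5 and Krt14 alone made up most of the family: 88.1, 91.4 and 91.6% of keratin counts in DKO libraries and 90.2, 86.6 and 87.5% in WT libraries, which overlap. The remaining keratins together had 796, 565 and 546 CPM in DKO libraries, against 1014, 1258 and 1118 CPM in WT libraries. Thus Krt5, Krt14 and the sum of the rest were lower in every DKO library. This does not hold for each member of the rest. Krt17, on average the most abundant of them, overlapped between the groups, while Krt6a did not. Of the 27 described keratins, 3 were higher in every DKO library (11.1%, against 11.4% of tested genes). The balance of the chain types stayed within the spread: type I over type II, in summed FPKM (fragments per kilobase of transcript, scaled to library size), was 1.34, 1.14 and 1.28 in DKO libraries and 1.10, 1.22 and 1.12 in WT libraries.

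Gene by gene, 1 of the 27 described keratins fell past the threshold of 0.05 on the adjusted p of edgeR's quasi-likelihood test and 0 rose, where 1.04% of the 14721 tested genes were called, 0.306% as lower and 0.734% as higher. Leaving out a library changed which keratins were called: none without DKO 3, Krt42 alone without DKO 4, Krt27 alone without WT 3, Krt6a with Krt4 without WT 1, and Krt6a with Krt6b, Krt10 and Krt19 without WT 2. At an unadjusted p below 0.05, 13 keratins (48.1%) were lower and 3 (11.1%) higher, against 9.37% lower and 8.67% higher of all tested genes. In 10 keratins (37.0%) every DKO library lay below every WT library, a pattern held by 11.8% of tested genes. In 3 keratins (11.1%) every DKO library lay above, against 11.4% of tested genes; in either direction it was 13 keratins, against 23.3% of tested genes. A log2 fold change (DKO over WT, as for all later ones) at or below -1 was found for 9 keratins and for 2.21% of tested genes, and one at or above 1 for 3 keratins and 1.77% of tested genes. The median log2 fold change was -0.47 over the 27 keratins, with a range of -3.38 to 1.28, and -0.01 over all tested genes. DESeq2, run as an alternative, called 9 keratins lower and 0 higher, where it called 2.62% of its tested genes lower and 3.24% higher. Those 9 were Krt5, Krt14, Krt6a, Krt42, Krt27, Krt10, Krt16, Krt19 and Krt4. Without the filter on low counts edgeR called 8 keratins lower, where it called 0.958% of genes lower.

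The lower values were spread over both chain types, with a median log2 fold change of -0.43 for the 14 type I genes and -0.49 for the 13 type II genes. Over levels, their spread depended on the measure. A log2 fold change at or below -1 was held by 6 of the 17 keratins with a mean of at least 100 counts. It was held by 3 of the described keratins with fewer counts. A value at or above 1 was held by 1 and 2 keratins, respectively. Separation of the groups and the medians differed more between levels. Over tested genes of all levels, 11.8% were lower and 11.4% higher in every DKO library, and shares at matched counts were not compared. Of the 17 keratins with a mean of at least 100 counts, 9 were lower and 1 higher in every DKO library, with a median of -0.49. Of the 10 keratins between 10 and 100 counts, 1 was lower and 2 were higher in every DKO library, with a median of -0.06.

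**Figure D1:**
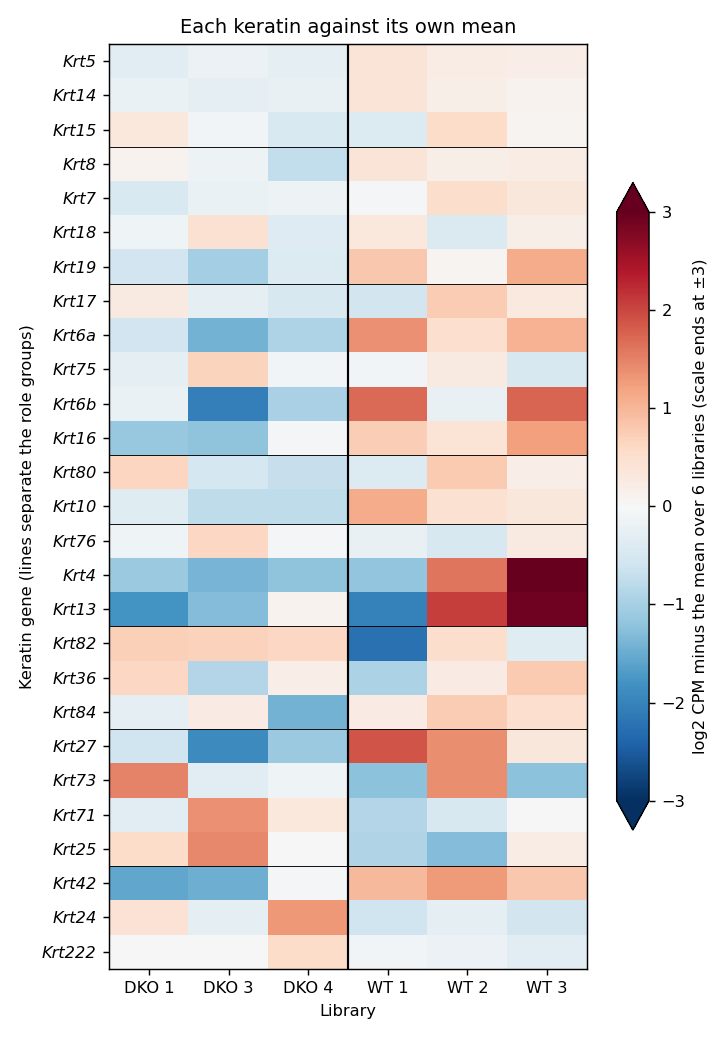
The 27 described keratins (rows) in the 3 DKO and 3 WT libraries (columns), coloured by log2 CPM minus the gene's mean log2 CPM over the 6 libraries, on a scale that ends at -3 and 3. The 10 keratins below WT in every DKO library include Krt5, Krt14, Krt6a, Krt42 and Krt27, and Krt4 and Krt13 stand out in WT 2 and WT 3.

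Krt5, the type II chain of basal epithelium, had 2878, 3173 and 2925 CPM in DKO libraries, against 4730, 4181 and 4107 CPM in WT libraries. Krt14, its type I partner, had 3028, 2851 and 2988 CPM in DKO libraries, against 4564, 3942 and 3747 CPM in WT libraries. In both genes the 3 DKO libraries were close together and all lay under the lowest WT library. The log2 fold changes were -0.54 (SE 0.13) for Krt5 and -0.47 (SE 0.14) for Krt14, and neither passed the threshold in edgeR (adjusted p = 0.108 and 0.147), while DESeq2 gave 2.14e-06 and 0.000291.

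Per length, Krt14 was the most abundant keratin, with 1840 ± 107 FPKM in DKO and 2532 ± 258 FPKM in WT (SD, n = 3 each), 26th among all genes by mean FPKM. Krt5 followed at 1612 ± 37.8 FPKM in DKO and 2348 ± 190 FPKM in WT, 30th in that order. Krt5 stood below Krt14 in every library, and the FPKM ratio of Krt5 to Krt14 was 0.834, 0.964 and 0.839 in DKO libraries and 0.907, 0.934 and 0.944 in WT libraries. The pair thus kept its proportion within the spread of the groups. Krt15, a further basal chain and a marker of resting epithelial progenitors in skin, had 114, 86.3 and 67.5 CPM in DKO libraries, against 69.5, 136 and 96.6 CPM in WT libraries. Its groups overlap (log2 fold change -0.17, edgeR adjusted p = 0.777).

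General markers of epithelium had a summed level, largely from Cdh1, of 865, 858 and 835 CPM in DKO libraries and 844, 1028 and 827 CPM in WT libraries, which overlap, and 0 of 9 tested genes were called by edgeR. Of these 9, 4 (44.4%; Epcam, Esrp1, Esrp2 and Rab25) were lower in every DKO library, against 11.8% of tested genes, and 3 were lower at an unadjusted p below 0.05. DESeq2 called 1 of them, Esrp2, as lower (adjusted p = 0.0304). Their median log2 fold change was -0.08, with -0.36 for Esrp2 as the lowest. Summed markers of mesenchyme overlapped as well, at 10655 to 13488 CPM in DKO and 6878 to 11440 CPM in WT, with 0 of 7 called. All 7 had a positive log2 fold change, with a median of 0.281. Of them, 0 had an unadjusted p below 0.05 in edgeR and 0 were higher in every DKO library. Markers of endothelium were higher in every DKO library, at 217 to 223 CPM in DKO and 146 to 193 CPM in WT, with 0 of 5 called. So were markers of leukocytes, at 65.9 to 85.4 CPM in DKO and 48.9 to 62.1 CPM in WT, again with 0 of 5 called. All 5 genes of each of these 2 lists had a positive log2 fold change. At an unadjusted p below 0.05, 2 endothelium and 3 leukocyte genes were higher and 0 lower, against 8.67 and 9.37% of tested genes. In each list 2 genes were higher in every DKO library, against 11.4% of tested genes. DESeq2 called 1 of them, Emcn of endothelium, as higher (adjusted p = 0.0232). The part of these cell types in the keratin values was not tested.

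**Figure D2:**
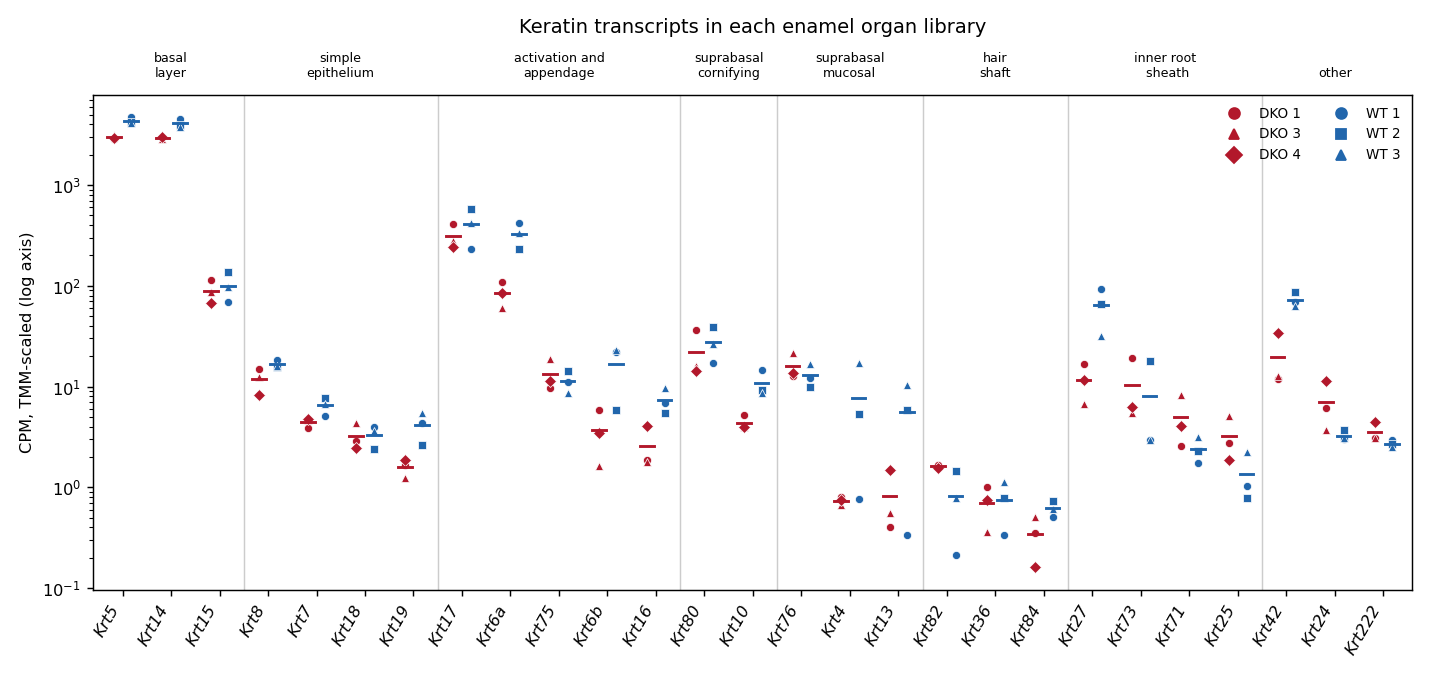
CPM on a log axis in each DKO (red) and WT (blue) library for the 27 described keratins, grouped by role, with the group mean as a horizontal bar and the replicate number as marker shape. In Krt6a, Krt42 and Krt27 the DKO libraries lie clear of the WT libraries, while Krt17, Krt15 and Krt80 overlap.

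Krt6a, a type II keratin of hair follicles, oral epithelium and activated keratinocytes, was the keratin that fell past the threshold in the fit without a covariate. The gene (ENSMUSG00000058354) lies on the minus strand at chr15:101689932-101694307 of GRCm38, between Krt6b and Krt5. It had 108.5, 60.6 and 85.6 CPM in DKO libraries, against 418, 230 and 336 CPM in WT libraries. The lowest WT library stood well above the highest DKO library, and the 3 libraries of each group covered less than the gap between the group means. In edgeR this made a level 3.86-fold lower, or -1.95 on the log2 scale (SE 0.27), with an adjusted p of 0.0216. Per length it had 48.2 ± 14.7 FPKM in DKO and 186 ± 54.4 FPKM in WT (SD, n = 3 each). The gene no longer passed without DKO 3, DKO 4 or WT 3 (adjusted p = 0.0790, 0.114 and 0.0770) or with a term for Xist-high libraries (0.0563), and its log2 fold change stayed between -2.16 and -1.73 when any library was left out.

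Krt6b, the neighbouring copy, had 5.87, 1.63 and 3.48 CPM in DKO libraries, against 21.9, 5.82 and 22.8 CPM in WT libraries. Its WT values split, with WT 2 just below the highest DKO library, so the groups overlap (log2 fold change -2.20, SE 0.59, edgeR adjusted p = 0.124). Reads of Krt6a and Krt6b can be hard to assign. Their coding sequences, of 1659 and 1662 bases, were identical at 97.6% of aligned positions, with 37 mismatches and 3 gap positions, and 393 of 1513 windows of 150 bases (26.0%) had no difference. Of the 50-base stretches of Krt6a transcripts, 43.6% also occur in Krt6b. A stretch that cannot tell them apart and the stretch of the same length with the most differences show the extremes; both are coding sequence from GENCODE vM21 on GRCm38, read 5′ to 3′, and capitals mark the bases that differ.
Krt6a and Krt6b, coding bases 34 to 183: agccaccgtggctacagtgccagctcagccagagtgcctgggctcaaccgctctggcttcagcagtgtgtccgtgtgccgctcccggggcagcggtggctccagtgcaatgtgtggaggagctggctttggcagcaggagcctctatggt
Krt6a, coding bases 727 to 876: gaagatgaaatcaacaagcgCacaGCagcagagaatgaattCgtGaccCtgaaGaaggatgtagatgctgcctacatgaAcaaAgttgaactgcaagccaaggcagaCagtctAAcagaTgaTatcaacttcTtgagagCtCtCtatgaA
Krt6b, coding bases 727 to 876: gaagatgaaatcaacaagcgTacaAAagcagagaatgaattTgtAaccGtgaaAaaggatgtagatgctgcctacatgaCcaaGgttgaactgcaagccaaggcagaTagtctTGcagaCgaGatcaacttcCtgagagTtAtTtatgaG

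The second stretch holds 19 differences in 150 bases. How reads from the shared stretches were divided bears on the smaller gene: the ratio of Krt6b to Krt6a was 0.118, 0.0971 and 0.0968 in DKO libraries and 0.122, 0.0894 and 0.130 in WT libraries by FPKM. By counts the same ratio was 0.0541, 0.0269 and 0.0406 in DKO libraries and 0.0524, 0.0253 and 0.0680 in WT libraries. Neither way of measuring separated the groups. The sum of the pair does not depend on how counted reads were divided between these genes. Shared reads that were counted for neither gene would be missing from it, and how they were handled is not known. The sum was 114, 62.3 and 89.1 CPM in DKO libraries, against 440, 236 and 359 CPM in WT libraries, with no overlap. The more abundant Krt5 also shares sequence with Krt6a: 6.98% of its 50-base stretches occur there. How such reads were counted is not known either.

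Krt16 and Krt17 are the type I chains that pair with the Krt6 proteins. Krt16 had 1.86, 1.78 and 4.01 CPM in DKO libraries, against 6.79, 5.48 and 9.63 CPM in WT libraries. Every DKO library was below every WT library, with a log2 fold change of -1.52 (SE 0.36) that did not pass in edgeR (adjusted p = 0.0959). Of its 50-base stretches, 37.6% also occur in other genes, 25.2% in the gene model Gm11597. The far more abundant Krt14 shares sequence with it as well: 11.4% of the 50-base stretches of Krt14 occur in Krt16. How reads from these stretches were counted is not known.

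Krt17 was by far the more abundant of the pair, at 207 ± 62.1 FPKM in DKO and 271 ± 112 FPKM in WT (SD, n = 3 each). It had 411, 281 and 245 CPM in DKO libraries, against 233, 584 and 420 CPM in WT libraries. WT 1 was the lowest library of all 6 and WT 2 the highest, so the groups overlap (log2 fold change -0.40, edgeR adjusted p = 0.565). The FPKM ratio of Krt6a to Krt17 was 0.224, 0.184 and 0.302 in DKO libraries, against 1.53, 0.341 and 0.686 in WT libraries. That ratio was lower in every DKO library, although DKO 4 and WT 2 lay near each other. Krt75, the type II keratin of the companion layer of the hair follicle, had 9.63, 19.0 and 11.2 CPM in DKO libraries, against 11.2, 14.4 and 8.54 CPM in WT libraries. Its groups overlap, with DKO 3 highest (log2 fold change 0.23, edgeR adjusted p = 0.727).

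Krt42, a type I gene that lies beside Krt17 in the mouse cluster and is known from the nail unit, had 12.0, 12.8 and 34.3 CPM in DKO libraries, against 69.7, 86.3 and 62.3 CPM in WT libraries. DKO 4 was the highest of its group but still below all WT libraries. The log2 fold change was -1.89 (SE 0.38), short of the threshold in edgeR (adjusted p = 0.0689). Relative to Krt17, its FPKM ratio was 0.0294, 0.0439 and 0.134 in DKO libraries, against 0.289, 0.141 and 0.145 in WT libraries. The ratio was lower in every DKO library, although DKO 4 lay near WT 2 and WT 3. Whether these neighbours differed in their change was not tested. Only 0.268% of the 50-base stretches of Krt42 occur in another gene.

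Of the keratins of the hair's inner root sheath, the type I chains Krt25 and Krt27 and the type II chains Krt71 and Krt73 were measured above the limit. Krt27 had 16.6, 6.73 and 11.6 CPM in DKO libraries, against 93.5, 66.4 and 32.0 CPM in WT libraries. All DKO libraries were below all WT libraries, and WT 3 was the lowest of its group. Its log2 fold change of -2.46 (SE 0.44), a 5.50-fold lower level, stood just short of the threshold in edgeR (adjusted p = 0.0519). With a term for Xist-high libraries it passed (edgeR adjusted p = 0.0319), as it did with total counts as scaling (0.0427). When single libraries were left out, its adjusted p ran from 0.0496 to 0.197.

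Krt25 is a chain of the same class, and Krt26, which was under the limit on counts, lies between the genes of Krt25 and Krt27. Krt25 had 2.76, 5.15 and 1.87 CPM in DKO libraries, against 1.02, 0.776 and 2.22 CPM in WT libraries. The groups overlap through DKO 4 and WT 3 (log2 fold change 1.28, SE 0.50, edgeR adjusted p = 0.235). The FPKM ratio of Krt27 to Krt25 was 7.91, 1.71 and 7.84 in DKO libraries, against 121, 107 and 18.7 in WT libraries, with no overlap. Of the 50-base stretches of Krt27, 11.1% occur in other genes, so most of its sequence tells the genes apart.

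The type II chains of the sheath did not follow Krt27 either. Krt71 had 2.56, 8.26 and 4.01 CPM in DKO libraries, against 1.74, 2.28 and 3.18 CPM in WT libraries (log2 fold change 1.04, edgeR adjusted p = 0.267). Krt73 had 19.2, 5.50 and 6.21 CPM in DKO libraries, against 2.93, 18.1 and 2.92 CPM in WT libraries. In Krt73 a single library of each group, DKO 1 and WT 2, held the high value. Markers of the hair follicle outside the keratins were scarce, with a sum of 5.47 to 11.7 CPM in DKO and 4.12 to 10.5 CPM in WT, and 0 of 3 tested genes were called.

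Upstream sequence is shown for Krt27 and Krt25, nearby genes of one class whose fold changes differ in sign. The 100 bases before each annotated start, from the RefSeq promoter table on GRCm38.p6, are read 5′ to 3′ on the minus strand of chromosome 11, and capitals mark the letters TATAAA.
Krt27, chr11:99351119-99351218: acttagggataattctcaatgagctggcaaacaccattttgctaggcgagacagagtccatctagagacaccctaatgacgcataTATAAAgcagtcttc
Krt25, chr11:99322952-99323051: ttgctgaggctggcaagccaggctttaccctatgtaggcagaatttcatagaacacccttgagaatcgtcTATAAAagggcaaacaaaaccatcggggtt

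The table matched 18 of the 27 described keratins. Within windows of 300 bases (250 before and 50 after the start) and on either strand, TATAAA occurred in 9 of these 18 (50.0%), against 15.7% of 27025 genes. TGANTCA, the AP-1 motif, occurred in 1 (5.56%), against 8.97% of genes. GCCNNNGGC, the AP-2 motif, occurred in 3 (16.7%), against 18.5%, and TGGAAA, the core bound by NFAT factors, in 4 (22.2%), against 23.9%. These motifs were chosen after the values were seen, none contains another, and a match describes letters only.

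Simple epithelial keratins were low. Krt8, the type II chain of the simple pair, had 14.9, 12.4 and 8.29 CPM in DKO libraries, against 18.2, 15.7 and 16.0 CPM in WT libraries. DKO 1 came close to WT 2 without reaching it (log2 fold change -0.49, SE 0.20, edgeR adjusted p = 0.26). Its partner Krt18 had 2.91, 4.38 and 2.46 CPM in DKO libraries, against 3.99, 2.38 and 3.62 CPM in WT libraries, with overlap (log2 fold change -0.04, edgeR adjusted p = 0.962).

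Further simple chains also lay below WT in every DKO library without passing the test. Krt19, a type I chain of simple and some stratified epithelia, had 1.66, 1.22 and 1.87 CPM in DKO libraries, against 4.37, 2.62 and 5.41 CPM in WT libraries (log2 fold change -1.38, SE 0.32, edgeR adjusted p = 0.0912). Krt7, a type II chain of glandular and ductal epithelia, had 3.86, 4.64 and 4.76 CPM in DKO libraries, against 5.09, 7.66 and 6.76 CPM in WT libraries (log2 fold change -0.56, edgeR adjusted p = 0.203). Of the 50-base stretches of Krt8, 26.9% occur in other genes, largely in its pseudogene Krt8-ps.

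Among keratins of cornifying layers, Krt10, the type I chain of suprabasal skin, had 5.22, 3.98 and 3.96 CPM in DKO libraries, against 14.5, 9.31 and 8.54 CPM in WT libraries. The groups were well apart, and the log2 fold change of -1.30 (SE 0.24) was short of the threshold in edgeR (adjusted p = 0.0545). Its usual partner Krt1 was under the limit on counts. Krt80, a type II chain of differentiating epithelial cells, had 36.1, 15.8 and 14.2 CPM in DKO libraries, against 17.1, 39.4 and 26.4 CPM in WT libraries. DKO 1 was the second highest of the 6 libraries and the groups overlap (log2 fold change -0.32, edgeR adjusted p = 0.731).

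Krt4 and Krt13, the pair of inner oral mucosa, and Krt76, a type II chain of the palate and gingiva, are the mucosal members. Krt4 had 0.803, 0.662 and 0.749 CPM in DKO libraries, against 0.764, 5.28 and 17.2 CPM in WT libraries. Krt13 had 0.401, 0.561 and 1.50 CPM in DKO libraries, against 0.339, 5.86 and 10.4 CPM in WT libraries. In both genes WT 2 and WT 3 were high and WT 1 was as low as the DKO libraries, so the range within WT was 22.5-fold for Krt4 and 30.7-fold for Krt13. Their log2 fold changes, -3.38 (SE 0.98) and -2.76 (SE 1.02), were the most negative of the family and did not pass in edgeR (adjusted p = 0.146 and 0.219). Krt76 had 12.8, 21.4 and 13.5 CPM in DKO libraries, against 12.1, 9.98 and 16.7 CPM in WT libraries (log2 fold change 0.30, edgeR adjusted p = 0.58), with overlap.

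Other genes of oral squamous epithelium were read beside this pair, and 8 of the 14 on the list were tested. The summed level of the 14 was 393, 351 and 404 CPM in DKO libraries and 528, 298 and 574 CPM in WT libraries. Of the 8 tested genes, 7 had a negative log2 fold change and 1 a positive one, with a median of -0.515. Calml3 and Tgm3 were lower in every DKO library (25.0%, against 11.8% of tested genes), and Lypd3 was higher (12.5%, against 11.4%). DESeq2 called 2 lower and 1 higher, where it called 2.62% of its tested genes lower and 3.24% higher. Sprr3, which encodes a cornified envelope protein and is named because of its values, had 0.451, 0.357 and 0.321 CPM in DKO libraries, against 0.382, 3.00 and 4.93 CPM in WT libraries, high in the same libraries as Krt4 and Krt13. Sprr1a had 1.41 and 3.66 CPM in WT 2 and WT 3 and at most 0.408 CPM elsewhere. Cnfn (1.02 and 2.88 CPM) and Krtdap (1.02 and 1.35 CPM) were likewise highest in WT 2 and WT 3, with at most 0.268 CPM elsewhere. Sprr1a, Cnfn and Krtdap are also named because of their values. Like Sprr3, they did not pass the filter on low counts and were not tested. Sprr1b and Ivl stayed at or below 0.349 CPM in every library. Lypd3, a surface protein of keratinocytes, was the gene of that list that rose, with 77.4, 101 and 101 CPM in DKO libraries, against 37.7, 25.4 and 37.1 CPM in WT libraries (log2 fold change 1.48, edgeR adjusted p = 0.0135). Lypd3 lost its call when DKO 3, DKO 4 or WT 3 was left out (adjusted p = 0.0635, 0.0783 and 0.0522). Tgm3 encodes a transglutaminase of the cornified envelope and the hair follicle. It had 2.91, 0.612 and 2.89 CPM in DKO libraries, against 85.0, 7.56 and 136 CPM in WT libraries. Its log2 fold change was -5.155 (edgeR adjusted p = 0.0689, DESeq2 0.000432). Calml3 had 13.9, 9.58 and 11.1 CPM in DKO libraries, against 32.9, 18.2 and 18.6 CPM in WT libraries. Its log2 fold change was -1.01 (edgeR adjusted p = 0.112, DESeq2 0.00448). More abundant genes of the list did not share the pattern of Krt4 and Krt13. Dmkn had 282, 194 and 274 CPM in WT 1, WT 2 and WT 3, and Ecm1 had 76.1, 37.3 and 76.5 CPM. WT 2 was also the lowest WT library for Sbsn, Calml3, Lypd3 and Tgm3, while Lor and Ly6d were highest in WT 3. The part of squamous cells in the keratin values was not tested.

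A few keratins were higher in every DKO library, and none passed the test. Krt24, a type I chain of differentiated keratinocytes, had 6.17, 3.72 and 11.2 CPM in DKO libraries, against 3.01, 3.68 and 3.10 CPM in WT libraries, where DKO 3 and WT 2 nearly touch (log2 fold change 1.11, SE 0.37, edgeR adjusted p = 0.19). Krt82, a type II chain of the hair cuticle, had 1.66, 1.63 and 1.55 CPM in DKO libraries, against 0.212, 1.45 and 0.785 CPM in WT libraries. Krt222, a keratin-like type I gene, stood at 3.06 to 4.49 CPM in DKO and 2.48 to 2.93 CPM in WT. The hair shaft genes Krt36 and Krt84 were at or below 1.13 CPM in every library and overlapped between the groups.

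The signs of the fold changes were also read in order along the chromosomes. Whether nearby genes share a sign more often than others was not tested. On chromosome 11 the described type I genes run Krt222, Krt24, Krt25, Krt27, Krt10, Krt36, Krt13, Krt15, Krt19, Krt14, Krt16, Krt17 and Krt42. On chromosome 15 the type II genes, with Krt18 at the end, run Krt80, Krt7, Krt84, Krt82, Krt75, Krt6b, Krt6a, Krt5, Krt71, Krt73, Krt76, Krt4, Krt8 and Krt18. Krt222, Krt24 and Krt25, at one end of the first cluster, had log2 fold changes of 0.39, 1.11 and 1.28, and the 10 genes from Krt27 to Krt42 all had a negative value, with -2.46 for Krt27 and -1.30 for Krt10. In the second cluster Krt80, Krt7 and Krt84 had -0.32, -0.56 and -0.83, and Krt82 and Krt75 had 0.99 and 0.23. Krt6b, Krt6a and Krt5 had -2.20, -1.95 and -0.54, followed among the described genes by Krt71, Krt73 and Krt76 with 1.04, 0.38 and 0.30. At the end Krt4, Krt8 and Krt18 had -3.38, -0.49 and -0.04. Of all of them, Krt6a alone passed the test, and some signs turn when a library is left out. The library kit does not mark strand, so reads of gene models that overlap on the opposite strand (Gm11940 at Krt10, Gm49428 at Krt6a, Gm36026 at Krt8, Gm671 at Krt7 and Gm35853 at Krt80) cannot be told apart from those of the keratins.

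**Figure D3:**
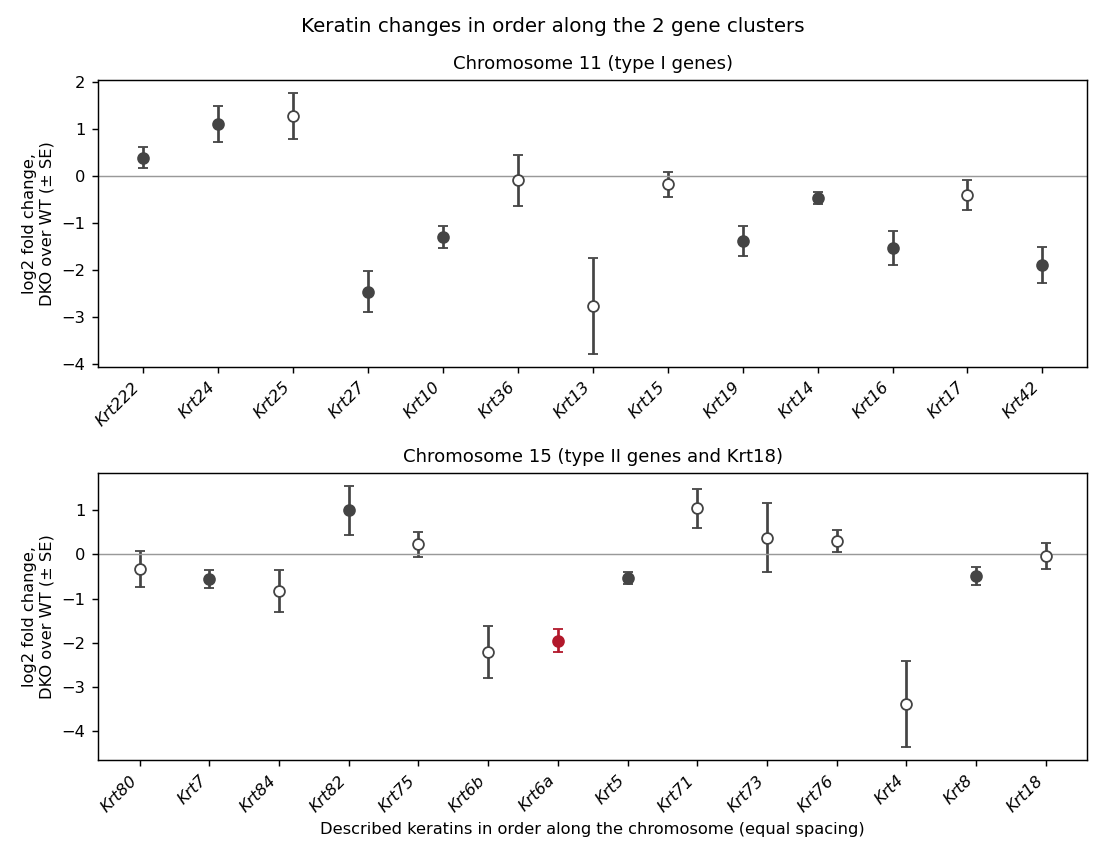
Log2 fold change (DKO over WT) of the described keratins in their order along the gene clusters on chromosomes 11 and 15, with standard errors as bars; filled points are keratins whose groups do not overlap, open points those that do, and red marks the called gene. Krt25 and Krt27, next to each other among the described keratins, lie on opposite sides of 0, and Krt6a is the called gene.

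The library with the highest value was also compared within the groups. Of the 27, 5 (Krt17, Krt15, Krt80, Krt73 and Krt82) were highest in DKO 1 among DKO libraries and in WT 2 among WT libraries (18.5%), as were 9.13% of all tested genes, and whether they vary together was not tested. Krt82 spanned only 1.07-fold within DKO. Across the family, 13 of the 27 keratins peaked in DKO 1 within their group, 7 in DKO 3 and 7 in DKO 4. In WT the peaks were divided as 8 in WT 1, 10 in WT 2 and 9 in WT 3, so no WT library was high throughout.

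Genes that anchor or organise keratin filaments were read from a list of 19, of which 18 were found in the files and 17 were tested. On that list 3 genes (17.6%) fell and 0 rose, against 0.306 and 0.734% of tested genes, and the median log2 fold change was -0.24. Dsp, desmoplakin, which ties keratin to desmosomes, had 732, 766 and 766 CPM in DKO libraries, against 1525, 1229 and 1161 CPM in WT libraries (log2 fold change -0.79, SE 0.13, edgeR adjusted p = 0.0432). Plec, plectin, had 270, 289 and 308 CPM in DKO libraries, against 522, 415 and 522 CPM in WT libraries (log2 fold change -0.75, SE 0.12, edgeR adjusted p = 0.038). Dst, dystonin, which with plectin links keratin to hemidesmosomes, had 107, 94.7 and 105 CPM in DKO libraries, against 193, 170 and 172 CPM in WT libraries (log2 fold change -0.80, SE 0.08, edgeR adjusted p = 0.011). In these 3 plakins the highest DKO library was well under the lowest WT library. The plakins Evpl, Ppl and Macf1 of the same list did not pass (edgeR adjusted p = 0.835, 0.14 and 0.229). Their log2 fold changes were -0.04, -0.29 and -0.39. Ppl and Macf1 were lower in every DKO library, and Evpl overlapped.

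The plakin calls depended on single libraries and on the measure. Dsp and Plec lost theirs without any library other than WT 2 (adjusted p = 0.0641 to 0.184 and 0.0815 to 0.132) and with a term for Xist-high libraries (0.103 and 0.061), and Dst lost its call without DKO 3 or DKO 4 (0.0573 and 0.0729). On the deposited FPKM, limma on log2(FPKM + 1) gave Dst a log2 fold change of -0.42 (adjusted p = 0.097) and Plec -0.71 (adjusted p = 0.0529), so neither passed there. Fam83h, which organises keratin filaments in ameloblasts and is mutated in amelogenesis imperfecta, had a log2 fold change of -0.24 (edgeR adjusted p = 0.405). Vim, vimentin, the intermediate filament of mesenchyme, had 0.35 and did not pass the test.

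**Figure D4:**
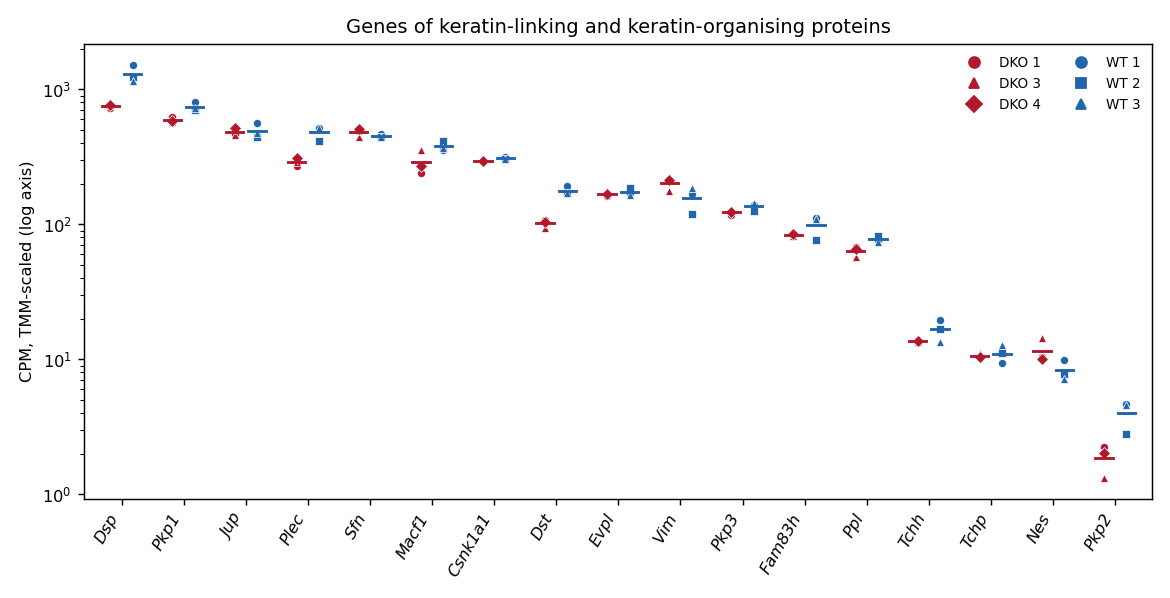
CPM on a log axis in each DKO (red) and WT (blue) library for the 17 tested genes that anchor or organise keratin filaments, with the group mean as a horizontal bar and the replicate number as marker shape. For Dsp, Plec and Dst the 3 DKO libraries lie below the 3 WT libraries.

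Of the 14 transcription regulators of epithelium reported here, all tested, 0 were called by edgeR or by DESeq2, and 4 (28.6%) were lower and 0 higher at an unadjusted p below 0.05, against 9.37 and 8.67% of tested genes. Their median log2 fold change was -0.27. Trp63, the p63 factor that drives basal keratins, had a log2 fold change of -0.06.

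Summed markers of ameloblasts, of which Amelx and Ambn are the most abundant, overlapped between DKO and WT, and 0 of 8 tested genes were called by edgeR. At an unadjusted p below 0.05, 3 of the 8 (37.5%) were higher and 0 lower, against 8.67 and 9.37% of tested genes. Amtn, amelotin of the maturation stage, had 9474, 12511 and 11544 CPM in DKO libraries, against 5875, 8389 and 5227 CPM in WT libraries, higher in every DKO library (edgeR adjusted p = 0.146, DESeq2 0.00141). Odam, which encodes another protein of that stage, was lower in every DKO library, at 10429 to 12231 CPM in DKO and 13209 to 19410 CPM in WT (edgeR adjusted p = 0.294). Summed markers of skeletal muscle, at 55.8 to 154 CPM in DKO and 71.3 to 293 CPM in WT, overlapped as well, with WT 3 the highest library.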

How the data were processed

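Per the labels' protocols, total RNA of 6 libraries was prepared with an unstranded TruSeq v2 kit. The authors deposited gene counts, not normalised, and FPKM values from Cufflinks, per the file headers. Trimmomatic 0.32, Cufflinks 2.2, HTSeq and GRCm38 are named in the submitters' processing notes; the aligner and the annotation release were not given in the sources used here. Library totals are given with the results, and 3 libraries per group limit the precision.

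From the deposited counts, differences between DKO and WT were tested in edgeR 4.0.16 (R 4.3.3), using its quasi-likelihood test with TMM scaling, filterByExpr and no covariate, and p-values were adjusted by Benjamini-Hochberg over all tested genes; code was tested on simulated data. A standard error is the log2 fold change over the square root of F. DESeq2 1.42.0, limma 3.58.1 on log2(FPKM + 1) of the deposited FPKM, other scalings and filters, a replicate block, an Xist term and leaving out each library were alternatives. Values per library are given for called keratins and for the 12 with the highest mean FPKM, and for others by role. The members and lists were chosen with earlier results of these data known. Shared 50-base stretches and coding sequences came from GENCODE vM21, which may differ from the annotation the authors used. One gene of the list of transcription regulators is not reported here, and counts for that list leave it out.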

Additional observations from a re-analysis of the deposited data

How the results depend on the processing

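Over all tested genes, 153 were called. The count was 554 without the low-count filter, 71 with a term for Xist-high libraries, 862 by DESeq2, and 77 by limma on log2 FPKM with either pseudocount (1 or 0.1), and 21 to 335 when each library was left out. For keratins, 1 was called, against 2 with total counts as scaling, 8 without the filter, 9 by DESeq2, and 0 to 4 when each library was left out. With the Xist term 1 was called, Krt27 in place of Krt6a, and with total counts Krt27 was called beside Krt6a. No described keratin changed sign under the 3 other scalings. For the partner list, 3 were called, against 1 with the Xist term, 5 by DESeq2 and 0 to 4 when each library was left out. The keratin median log2 fold change was -0.51 to -0.28 when each library was left out, with the value nearest 0 without DKO 4. Stim2 had -1.13 with the Xist term (edgeR adjusted p = 0.0557) and -1.18 to -0.96 when each library was left out, with adjusted p of 0.0156 to 0.0987. The keratin share without Ambn and Amelx averaged 0.742% in DKO and 1.08% in WT, and type I over type II by counts averaged 1.08 in DKO and 1.001 in WT. The cause of these changes was not tested.

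Replicate numbers 1 and 3 occur in both groups and could pair libraries, but the correlation of same-numbered deviations was 0.189 for number 1 and 1e-04 for number 3, so the numbers were not read as pairs. Number 2 occurs only as WT 2 and number 4 only as DKO 4. A fit with a replicate block therefore compares only DKO 1 with WT 1 and DKO 3 with WT 3. WT 2 and DKO 4 do not enter its fold changes. In that fit, 328 genes (1.33% of tested genes as lower) and 6 keratins were called. The keratins were Krt6a (edgeR adjusted p = 0.00371), Krt42 and Krt27 (0.00146 each), Krt16 (0.0176), Krt6b (0.0362) and Krt10 (0.0424). Dsp lost its call (0.114), and 3 single keratins turned in sign: Krt17 to 0.12, Krt15 to 0.27 and Krt80 to 0.18. Leaving out a library also turned the sign of keratins that overlapped between groups. The log2 fold change ran from -0.38 to 0.10 for Krt15, -0.87 to 0.0222 for Krt80, -0.12 to 0.43 for Krt75, -0.43 to 1.82 for Krt73, -0.31 to 0.13 for Krt18 and -0.44 to 0.35 for Krt36.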
